A study of Mus musculus with 12 samples.

Results

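Effector cytokine genes were followed in mouse regulatory T cells (Treg) with and without Ikaros, the zinc finger transcription factor encoded by Ikzf1. The genes were Il2, Il3, Csf2, Ifng, Tnf, Il4, Il13, Il17a and Il21, that is 9 of the 36222 genes in the expression table, taken by gene name. None of the 9 names belonged to more than 1 gene identifier. Each level was read against 1096 olfactory receptor genes, which T cells do not use and which therefore show how high a silent gene reads in these libraries.

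The study holds 12 RNA-seq libraries, with 3 in each of 4 groups. Wild-type (WT) mice carried the Foxp3-IRES-YFP-Cre allele alone. Mice with the conditional knockout (cKO) carried the same Cre together with floxed Ikzf1, so that deletion was limited to cells that express Foxp3. YFP+ Treg were sorted from splenic CD4+ cells of individual mice, aged 6 to 8 weeks by the study's account of the cells taken directly, and were used either ex vivo or after 4 h of stimulation with plate-bound antibodies to CD3 and CD28 (1 µg/ml of each). The comparisons ask which cytokine genes differ between Ikzf1 cKO and wild-type Treg, before and after stimulation of the antigen receptor, and whether stimulation acts on them differently in the 2 genotypes.

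Effector cytokines are secreted by helper T cells after antigen recognition and instruct other cells, through receptors that signal to the nucleus. Their genes are induced by factors downstream of the T cell receptor, such as NFAT, AP-1 and NF-kB, together with lineage factors such as T-bet and GATA3. Treg keep most of them low. In Treg, Foxp3 and partner proteins, among them members of the Ikaros family, are known as repressors of Il2 and other cytokine genes.

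The promoter of each gene is where the receptor-dependent factors meet repressors, and the 250 bases before the start of the 5 genes called between the genotypes after stimulation are shown for this reason. They are from RefSeq (build GRCm38.p6), read 5′ to 3′ on the gene's strand, and each was placed by exact match on mm9, whose coordinates are given. All 9 genes matched an entry, and each of the 9 sequences had 1 exact match near its gene. The start meant is that of the RefSeq entry. For Csf2 the window stops at 54063402, upstream of the annotated start at 54063169, so it does not adjoin that start. Capitals mark matches, on either strand, to GGAAA (the core of NFAT sites), TGANTCA (AP-1), GGGAA (the core bound by Ikaros) or TAAACA (forkhead factors). The GGAAA and GGGAA matches may overlap by sharing bases.
Il2, chr3:37024877-37025126, minus strand: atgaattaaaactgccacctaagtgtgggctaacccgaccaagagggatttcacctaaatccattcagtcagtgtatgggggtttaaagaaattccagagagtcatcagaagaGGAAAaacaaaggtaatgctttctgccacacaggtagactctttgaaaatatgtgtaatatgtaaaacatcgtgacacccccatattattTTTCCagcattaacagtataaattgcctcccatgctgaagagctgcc
Il3, chr11:54080782-54081031, minus strand: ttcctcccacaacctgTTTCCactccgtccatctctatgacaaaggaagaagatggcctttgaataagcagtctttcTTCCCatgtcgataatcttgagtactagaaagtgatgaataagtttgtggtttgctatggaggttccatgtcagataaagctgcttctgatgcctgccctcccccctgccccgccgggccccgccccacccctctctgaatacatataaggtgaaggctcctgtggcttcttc
Csf2, chr11:54063402-54063651, minus strand: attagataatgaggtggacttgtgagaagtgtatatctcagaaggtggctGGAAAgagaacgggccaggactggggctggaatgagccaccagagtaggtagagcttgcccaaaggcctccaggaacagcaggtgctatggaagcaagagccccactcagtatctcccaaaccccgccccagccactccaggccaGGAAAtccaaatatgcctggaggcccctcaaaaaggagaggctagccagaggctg
Ifng, chr10:117877852-117878101, plus strand: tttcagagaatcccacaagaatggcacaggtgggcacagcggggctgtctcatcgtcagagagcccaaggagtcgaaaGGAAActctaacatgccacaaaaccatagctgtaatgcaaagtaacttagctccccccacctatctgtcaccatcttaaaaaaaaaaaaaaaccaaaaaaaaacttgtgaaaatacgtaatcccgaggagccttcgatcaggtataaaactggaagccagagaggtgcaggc
Tnf, chr17:35338953-35339202, minus strand: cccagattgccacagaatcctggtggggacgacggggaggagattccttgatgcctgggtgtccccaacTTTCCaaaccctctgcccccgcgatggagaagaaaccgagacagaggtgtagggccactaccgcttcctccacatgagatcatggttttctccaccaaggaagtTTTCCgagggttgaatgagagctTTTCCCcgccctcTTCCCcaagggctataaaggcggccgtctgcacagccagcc

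The letters GGAAA occurred in the upstream windows of 8 of the 9 genes, against 55.58% of 32841 promoter windows of the same length. GGGAA occurred in 4 of 9, against 56.25%. TGANTCA occurred in 1 of 9, the Il17a window, against 6.75%, and TAAACA in 0 of 9, against 12.03%. Il4 held 5 matches to GGAAA and Il13 held 4, where 1.59% of all windows held at least 4. Tnf and Il21 held 3 each (at least 3 in 6.39%), Il2 and Csf2 2 each (at least 2 in 21.4%), and Il3 and Ifng 1 each. A match is a description of letters and no evidence of binding. The 3′ untranslated regions of the cytokine genes also shared a feature, the AU-rich pentamer ATTTA, which is known from short-lived messengers. Its density was 28.4 per kb in Csf2, where only 9 of 18458 genes with a region of at least 100 bases, Csf2 among them, were as dense or denser. It was 19.23 per kb in Il4, 12.05 in Il2, 10.99 in Il17a, 10.5 in Tnf, 9.9 in Il3 and 9.51 in Ifng, against a median of 1.2 per kb. The values of Il4 and Il3 rest on 2 matches in 104 bases and 1 match in 101 bases. The lowest densities among the 9 were 4.05 per kb in Il13 and 3.49 per kb in Il21.

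Several of the genes are neighbours. On mm9 chromosome 11, Il4 (53416484 to 53432171) lies 12.7 kb from Il13 (53444826 to 53448204), and Csf2 (54060773 to 54063169) lies 15.6 kb from Il3 (54078805 to 54080779). On chromosome 3, Il2 (37019445 to 37024881) lies 96.8 kb from Il21 (37121681 to 37131540). Ifng stands on chromosome 10 (117878103 to 117882948), Tnf on chromosome 17 (35336326 to 35338952) and Il17a on chromosome 1 (20720986 to 20724577). No annotated gene on the same strand overlapped any of the 9, and reads had been counted by strand.

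Ikzf1, the targeted gene, was measured first as a check of the labels. Its level in TPM (transcript abundance scaled to a fixed library total) was 105 ± 20.6 in WT against 41.9 ± 2.82 in cKO Treg ex vivo. After stimulation it was 74.8 ± 8.48 against 25.2 ± 7.43 (SD, n = 3 each). The cKO libraries lay below every WT library in both conditions.

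Each library had 8208659 to 20247649 assigned reads, and the stimulated cKO group was the shallowest (8208659 to 10930376). Gm10800, a gene model chosen here for its values, took 26.0 ± 12.1% of all TPM in WT and 22.9 ± 2.17% in cKO Treg ex vivo, and 38.1 ± 5.93% in WT and 48.8 ± 6.58% in cKO Treg after stimulation (SD, n = 3 each), which lowers all other deposited TPM by unequal amounts. Its part in the results was not tested. The library WT ex vivo 3 was the only one with high Xist (179 TPM, against at most 1.36 in the other 11), as in a female. In sorted bulk cells, more cells that transcribe a gene and more transcript per cell cannot be told apart.

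The median olfactory receptor gene read 0.576 to 1.25 TPM depending on the library, and the 95th percentile 1.503 to 2.78 TPM. None of the 1096 had a group mean of 5 TPM or more in any group. Tests were made with limma on log2(scaled TPM + 1) over the 13318 genes that averaged 5 TPM or more in at least 1 group, with p-values adjusted by Benjamini-Hochberg over all of them. Of the 9 cytokine genes 6 passed this filter, and Il2, Il3, Csf2 and Il13 passed it only through the stimulated cKO group. Counts over the genes that passed are therefore no support for a difference in that group. All 9 passed a filter at 1 TPM (33873 genes), and the calls under that filter stand beside the others. The library scale factors were computed anew over the genes it kept, so that both the genes and the scaling changed (the factor of cKO stimulated 3 went from 0.732 to 1.13). In an alternative added after the data were seen, the 1 TPM filter was used with the scale factors of the 5 TPM filter, which left the log2 changes of the 6 genes as they were. The silent genes did not move alike under the 2 scalings. For 814 olfactory receptor genes the median log2 change with the factors of the 5 TPM filter was 0.22 between the genotypes after stimulation and 0.31 for stimulation in cKO, against 0.04 and 0.02 with the factors of the 1 TPM filter. Changes of genes near background under the 5 TPM factors stand against that shift.

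**Figure D1:**
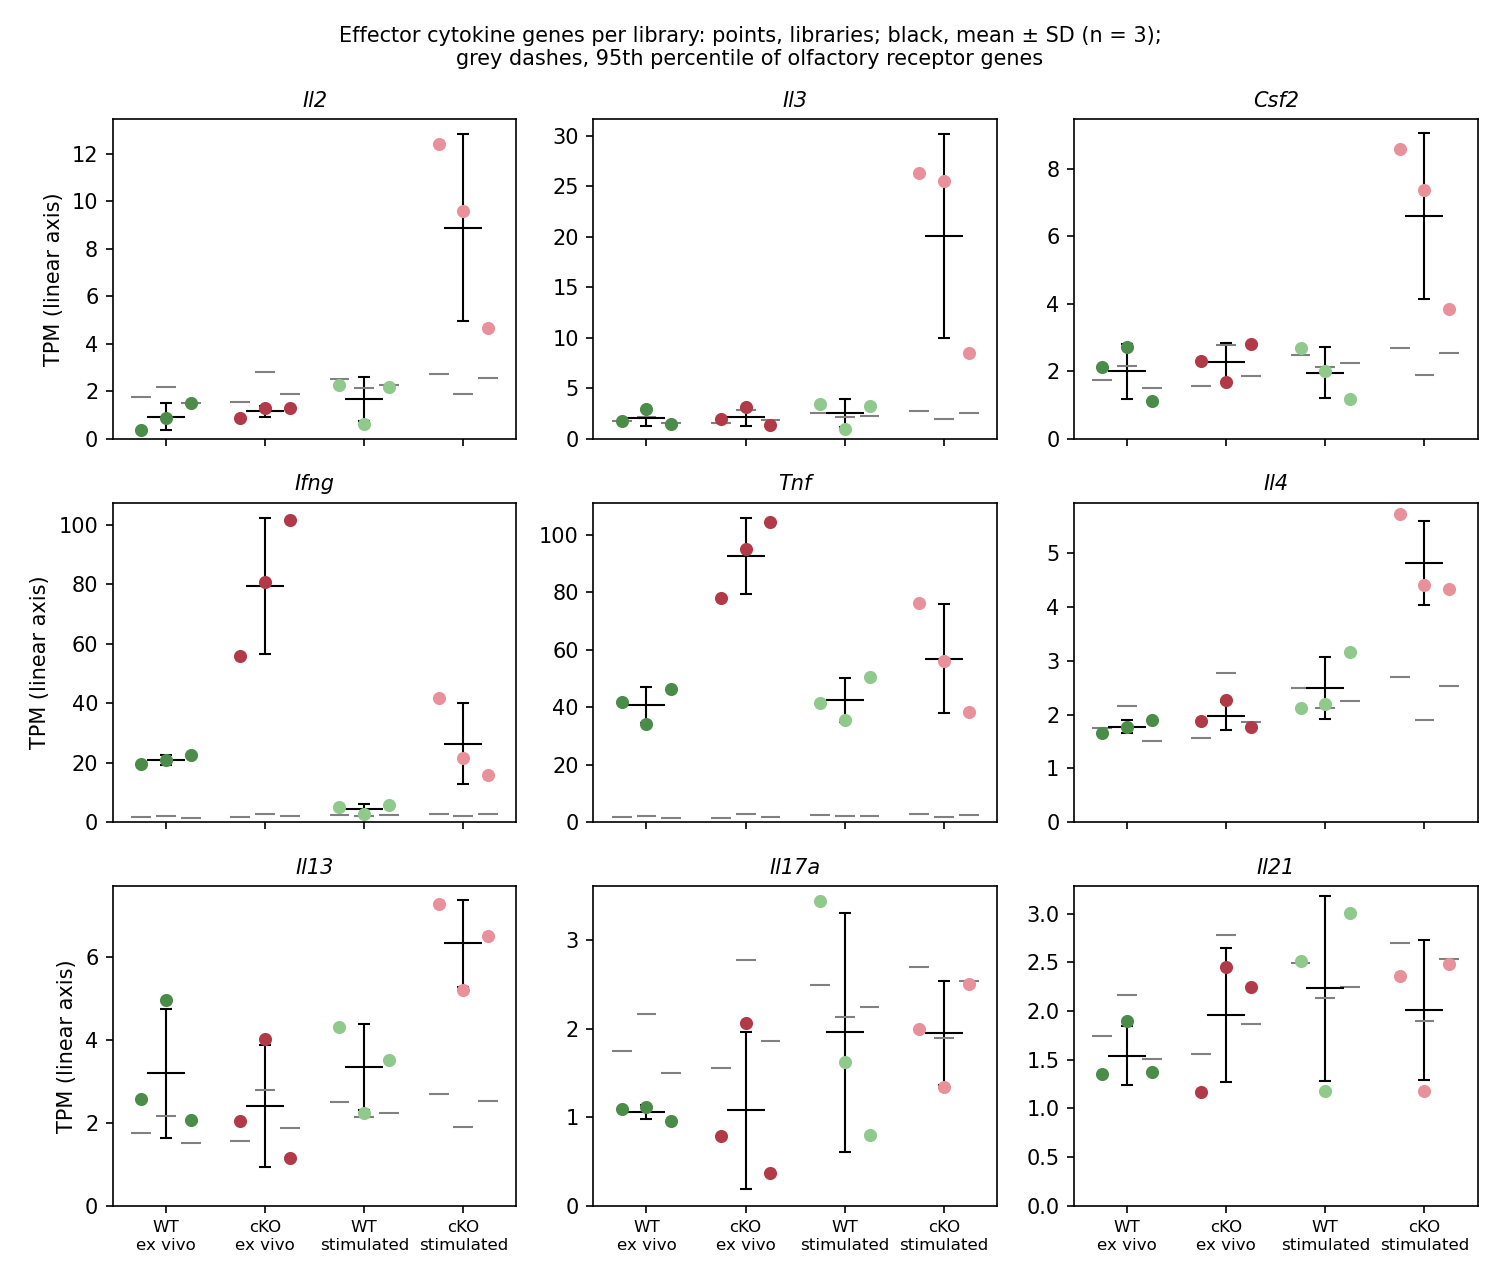
TPM (vertical axis, linear, a separate scale for each gene) of the 9 cytokine genes in the 12 libraries, in 4 groups of 3, replicates 1 to 3 from left to right. Points are libraries, black bars the mean and SD, and grey dashes the 95th percentile of olfactory receptor genes in the same library. Il2, Il3 and Csf2 rise clear of the dashes in cKO stimulated, while Il17a and Il21 stay close to them in all groups.

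Il2 encodes the growth factor of T cells, which Treg consume but hardly make. In WT ex vivo Treg it read 0.373, 0.857 and 1.51 TPM, and in cKO ex vivo 0.876, 1.27 and 1.29 TPM. After stimulation it read 2.27, 0.613 and 2.16 TPM in WT and 12.4, 9.58 and 4.65 TPM in cKO. The 3 stimulated cKO libraries were the highest of the 12, and the other 9 lay within the range of olfactory receptor genes. In cKO stimulated 3 there was still 1 olfactory receptor gene at or above Il2 (maximum 5.46 TPM). The reads behind these values were 4 to 23 in the ex vivo and WT stimulated libraries and 97, 91 and 38 in cKO stimulated.

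The Il2 mean in cKO stimulated was 5.29 times that of WT stimulated (8.88 ± 3.93 against 1.68 ± 0.925 TPM; SD, n = 3). In limma Il2 rose by 2.10 (log2, SE 0.46, adjusted p 0.0209) in stimulated cKO over stimulated WT Treg. The call was not kept at 1 TPM (adjusted p 0.0759), where it was kept with the scale factors unchanged (0.00607), or with the replicate number as a block (0.0544), nor without any of 4 libraries, WT stimulated 2 or 3 and cKO stimulated 1 or 2 (0.0529 to 0.131). It was also lost without a filter (0.0813), with a pseudocount of 1 read (0.0712) and without scaling (0.0781). In all, 15 of 25 alternatives kept it. Stimulation in cKO Treg raised Il2 by 2.35 (SE 0.46, adjusted p 0.00218). In WT Treg the change was 0.32 (SE 0.46, adjusted p 0.629), with a 95% interval from -0.69 to 1.32. Ex vivo the genotypes differed by 0.07 (adjusted p 0.969, interval -0.94 to 1.07).

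Il3 encodes a growth factor for mast cells, basophils and blood progenitors. It read 1.70, 2.94 and 1.43 TPM in WT ex vivo and 1.96, 3.08 and 1.38 TPM in cKO ex vivo. After stimulation it read 3.44, 0.956 and 3.17 TPM in WT and 26.3, 25.5 and 8.45 TPM in cKO. No olfactory receptor gene reached the level of Il3 in any stimulated cKO library, and the groups outside cKO stimulated overlapped.

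The Il3 mean was 7.96 times higher in stimulated cKO than in stimulated WT Treg, the largest ratio among the 9 genes in that comparison. The log2 difference was 2.78 (SE 0.39, adjusted p 0.00212), and the call was kept at 1 TPM (adjusted p 0.044) and with any library omitted (at most 0.0157). With the 1 TPM filter and the replicate block together, an alternative added after the data were seen, the adjusted p was 0.091. Stimulation raised Il3 by 2.90 in cKO Treg (SE 0.39, adjusted p 0.00023) and changed it by 0.00 in WT Treg (SE 0.39, adjusted p 0.999, interval -0.87 to 0.87).

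Csf2 encodes GM-CSF, a cytokine that activates myeloid cells. It read 2.14, 2.72 and 1.13 TPM in WT ex vivo, 2.31, 1.66 and 2.82 TPM in cKO ex vivo, and 2.70, 2.01 and 1.17 TPM in WT stimulated. In cKO stimulated it read 8.61, 7.38 and 3.85 TPM from 47, 49 and 22 reads, all above the 9 other libraries. The difference from stimulated WT was 1.55 (log2, SE 0.36, adjusted p 0.0272), and stimulation raised Csf2 by 1.43 in cKO (SE 0.36, adjusted p 0.00917) against -0.14 in WT (adjusted p 0.798). The genotype call was lost at 1 TPM (adjusted p 0.184, against 0.0248 with the scale factors unchanged) and without WT stimulated 2 or 3 or cKO stimulated 1 or 2 (0.0664 to 0.114), and the stimulation call in cKO was lost at 1 TPM (0.0561). The genotype call was also lost without a filter (0.1895) and without scaling (0.0926), and 17 of 25 alternatives kept it.

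The lowest of the 3 stimulated cKO libraries was replicate 3 for Il2, Il3 and Csf2 alike. This was the shallowest library, with 8208659 reads and the largest Gm10800 share, 55.9% of its TPM. Even there Il3 stood 7.97 times above the olfactory receptor median, Il2 4.38 times and Csf2 3.63 times. The part of depth and of Gm10800 in the spread was not tested.

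**Figure D2:**
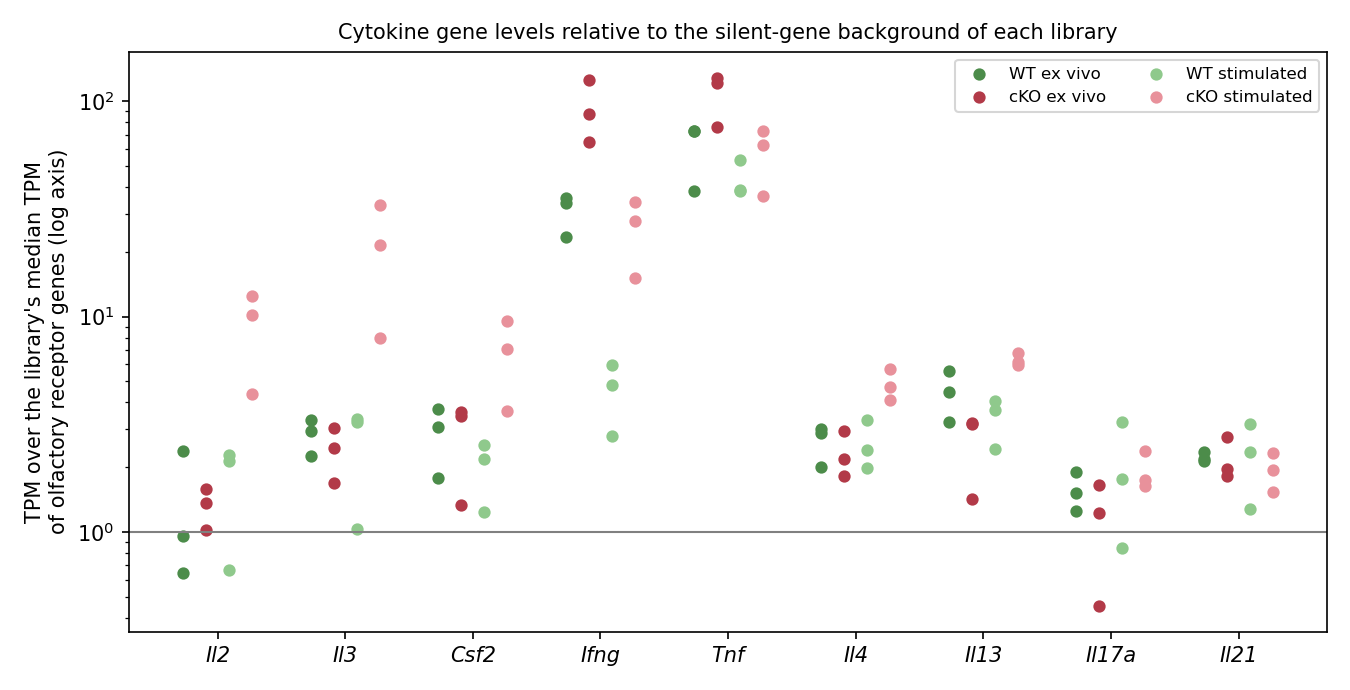
TPM of each cytokine gene divided by the median TPM of olfactory receptor genes in the same library (vertical axis, logarithmic), by gene (horizontal axis) and group (colour), each point 1 library. The line marks a ratio of 1. Il3 lies at 7.97 to 33.1 in cKO stimulated and at or below 3.34 in the other groups.

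Ifng encodes interferon gamma, the cytokine that defines Th1 cells and activates macrophages. Unlike the genes above it was well above background before stimulation. It read 19.4, 20.8 and 22.6 TPM in WT ex vivo and 56.0, 80.7 and 102 TPM in cKO ex vivo. After stimulation it read 5.14, 2.58 and 5.65 TPM in WT and 41.8, 21.5 and 16.0 TPM in cKO. The genotypes did not overlap in either condition.

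The Ifng mean was 3.80 times higher in cKO than in WT ex vivo and 5.93 times higher after stimulation. On the log2 scale cKO exceeded WT by 1.60 ex vivo (adjusted p 0.00616) and by 2.54 after stimulation (adjusted p 0.000325), each with an SE of 0.26. The stimulated call was kept at 1 TPM (adjusted p 0.0146) and the ex vivo call was not (0.0823, against 0.0126 with the scale factors unchanged), and leaving out any of the 12 libraries ended neither under the 5 TPM filter. Under the 1 TPM filter with the replicate block the stimulated p was 0.0612. Ifng fell on stimulation in both genotypes, by 2.24 in WT (adjusted p 0.000106) and by 1.30 in cKO (adjusted p 0.00277), and the difference between these falls was not called (0.93, SE 0.37, adjusted p 0.282).

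Tnf encodes tumour necrosis factor, an inflammatory cytokine that T cells and myeloid cells make rapidly. It read 41.8, 34.1 and 46.2 TPM in WT ex vivo and 78.1, 95.1 and 104 TPM in cKO ex vivo, without overlap. After stimulation it read 41.3, 35.5 and 50.5 TPM in WT and 76.2, 56.1 and 38.3 TPM in cKO, and in these deposited TPM cKO stimulated 3 lay between the WT libraries. On the scaled TPM used for the tests the groups did not overlap (36.8 to 41.8 in WT and 52.3 to 72.3 in cKO).

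Tnf was 2.27 times higher in cKO than in WT ex vivo on average, a log2 difference of 0.93 (SE 0.14, adjusted p 0.00365). After stimulation the difference was 0.66 (SE 0.14, adjusted p 0.0161). It came to 0.36 at 1 TPM (adjusted p 0.51, against 0.0293 with the scale factors unchanged) and to 0.38 with the TPM as deposited (0.298), and the call was also lost without WT stimulated 1 or 2 or cKO stimulated 1 (0.0585 to 0.0671). The ex vivo call was lost at 1 TPM (adjusted p 0.253, against 0.00691 with the scale factors unchanged) and was kept in all 12 fits with a library left out. On stimulation Tnf fell by 0.41 in cKO (adjusted p 0.0319), a call and a direction that depended on scaling, since with quantile normalization the change was 0.12 (adjusted p 0.46). At 1 TPM the fall was larger (-0.95, adjusted p 0.0182), as it was without scaling (-0.74, adjusted p 0.0325). The call was lost without cKO ex vivo 2 or 3 or cKO stimulated 2 or 3 (adjusted p 0.0528 to 0.187). In WT the change was -0.14 (adjusted p 0.46).

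Il4 and Il13 encode the cytokines that define Th2 cells and drive IgE and mucus production. Il13 read 2.57, 4.97 and 2.05 TPM in WT ex vivo, 2.05, 4.02 and 1.15 TPM in cKO ex vivo, 4.31, 2.25 and 3.51 TPM in WT stimulated, and 7.29, 5.20 and 6.50 TPM in cKO stimulated. In these deposited TPM the stimulated cKO libraries were again the 3 highest. On the scaled TPM used for the tests WT ex vivo 2 (6.15) lay above cKO stimulated 2 (5.83). Stimulation raised Il13 by 1.44 in cKO Treg (SE 0.37, adjusted p 0.00945), also called at 1 TPM (0.028), while the genotype difference after stimulation, 1.02 (SE 0.37), was not called (adjusted p 0.126). It was called with voom on the recovered reads (1.22, adjusted p 0.0362). Il13 lay near background, and its changes were not corrected for the shift of the olfactory receptor genes.

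Il4 read 1.65, 1.77 and 1.90 TPM in WT ex vivo, 1.89, 2.27 and 1.77 TPM in cKO ex vivo, 2.11, 2.21 and 3.16 TPM in WT stimulated, and 5.73, 4.42 and 4.33 TPM in cKO stimulated. Its highest group mean, 4.83 ± 0.784 TPM (SD, n = 3), stayed under 5 TPM. With the 1 TPM filter, stimulation raised Il4 by 0.79 in cKO Treg (SE 0.15, adjusted p 0.00488), and the genotype difference after stimulation, 0.71 (SE 0.15), was not called (adjusted p 0.116). With the scale factors of the 5 TPM filter that difference was 0.97 (SE 0.17) and was called (adjusted p 0.0143). Olfactory receptor genes had a median of 0.22 and a 95th percentile of 0.68 in the same fit.

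Il17a encodes the cytokine of Th17 cells, and Il21 a cytokine of follicular helper and Th17 cells that acts on B cells. Ex vivo, Il17a read 0.961 to 1.12 TPM in WT and 0.37 to 2.07 TPM in cKO Treg. After stimulation it read 0.803 to 3.45 TPM in WT and 1.34 to 2.51 TPM in cKO. Il21 read 1.35 to 1.89 TPM in WT and 1.17 to 2.45 TPM in cKO ex vivo, and 1.17 to 3.01 TPM against 1.18 to 2.48 TPM after stimulation. Between 28 and 390 olfactory receptor genes had group means as high as or higher than those of Il17a and Il21, so both genes lay within the range of silent genes in every group. At 1 TPM, where both were tested, the genotype differences after stimulation were 0.05 for Il17a (SE 0.31, adjusted p 0.957) and -0.09 for Il21 (SE 0.22, adjusted p 0.89).

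Read over the 9 genes, the comparisons came out as follows. In the genotype effect ex vivo Ifng and Tnf were called higher in cKO and none lower, where 3.62% of all genes tested were called higher and 1.67% lower. With the 1 TPM filter 0 of 9 were called in limma, where 0.168% of genes were. With that filter and the scale factors unchanged Ifng and Tnf were called, where 1.15% of genes were. In the genotype effect after stimulation 5 were called higher (Il2, Il3, Csf2, Ifng and Tnf), and none lower, where 3.30% of all genes were called higher and 3.63% lower. With the 1 TPM filter Il3 and Ifng were called, where 0.201% of genes were. With that filter and the scale factors unchanged the same 5 and Il4 were called, where 1.77% of genes were. In the deposited TPM every stimulated cKO library lay above every stimulated WT library for 6 of the 9 (Il2, Il3, Csf2, Ifng, Il4 and Il13), and for 5.23% of all 36222 genes.

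In WT Treg stimulation lowered Ifng alone among the tested cytokine genes, where 19.3% of genes were called lower. In cKO Treg it raised 4 (Il2, Il3, Csf2 and Il13), where 17.3% of genes were called higher, and lowered Ifng and Tnf, where 26.5% were called lower. At 1 TPM the genes called in cKO were Il2, Il3, Il4 and Il13, higher, and Ifng and Tnf, lower. There 17.4% of genes were called in either direction, and 12.8% of those calls were higher. With the scale factors unchanged Csf2 was called besides, where 22.8% of genes were, and 58.9% of those calls were higher. In that fit 16 of 814 olfactory receptor genes were called, against 2 with the new factors. The comparisons share libraries, so these lists are not independent of each other.

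The interaction asks directly whether stimulation acted differently in the 2 genotypes. Il3 was called, by 2.90 more in cKO than in WT (SE 0.56, adjusted p 0.0383), where 0.451% of genes were called higher. The estimates for Il2 (2.04, SE 0.64, adjusted p 0.168), Csf2 (1.57, SE 0.51, adjusted p 0.182) and Il13 (1.52, SE 0.52, adjusted p 0.202) were not called. Nor were those for Ifng (0.93, given above) and, in the other direction, Tnf (-0.27, SE 0.19, adjusted p 0.551). The Il3 call was lost when any of 9 libraries was omitted (adjusted p up to 0.113), at 1 TPM (0.436, and 0.0685 with the scale factors unchanged) and with the block (0.0679). It was kept in 8 of 24 alternatives, and Il3 was tested under the 5 TPM filter only because it was high in cKO stimulated.

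**Figure D3:**
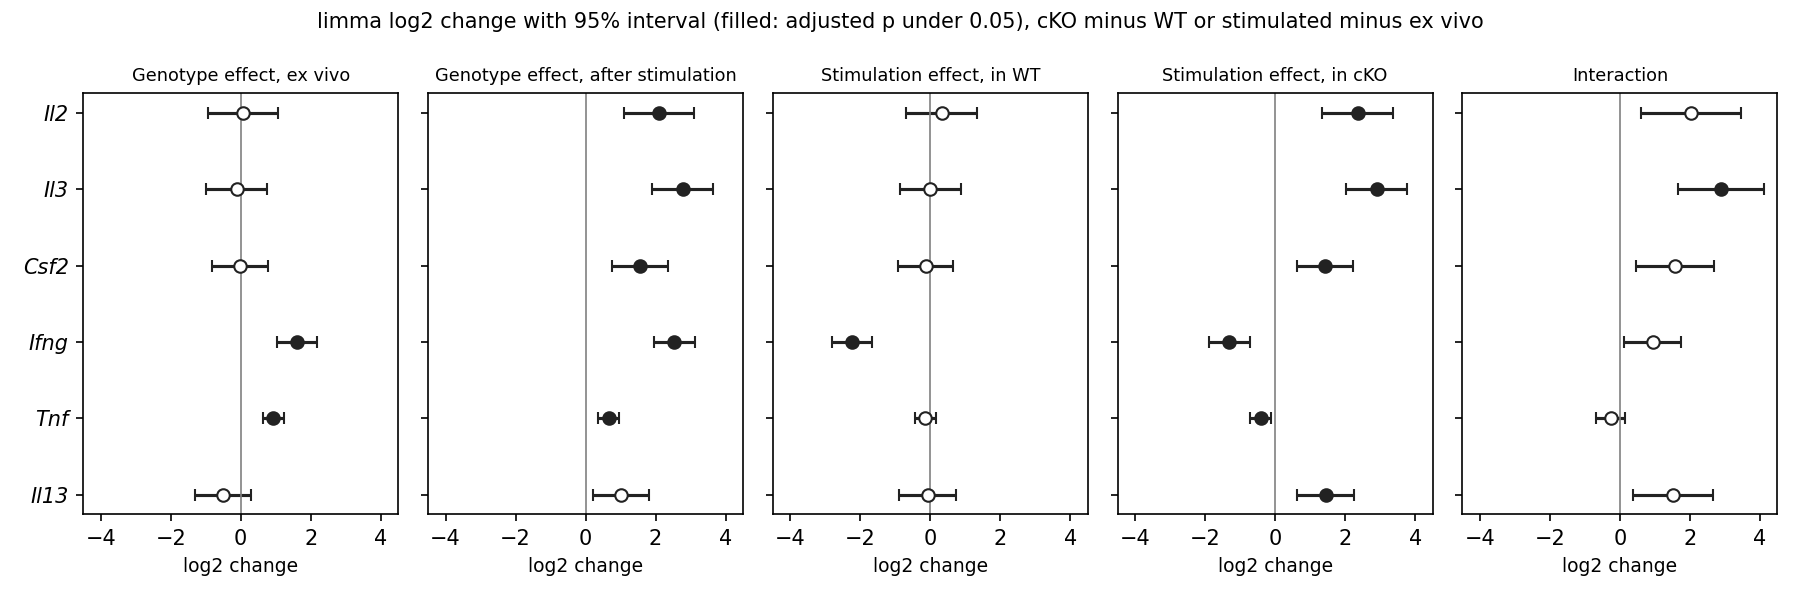
limma log2 changes (horizontal axis) with 95% intervals for the 6 cytokine genes that passed the 5 TPM filter, in the 5 comparisons. Filled points had an adjusted p under 0.05. Ifng and Tnf lie to the right ex vivo, 5 of the 6 are filled after stimulation, and Il3 alone is filled in the interaction.

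The counts in the lists that follow stand against all genes tested, of which 3.62% were higher and 1.67% lower in cKO ex vivo, and 3.30% higher and 3.63% lower after stimulation. Receptors for these cytokines were measured as a list of 17 genes, 12 of them tested. After stimulation 3 were higher in cKO, Il2ra (the high-affinity IL-2 receptor chain, log2 difference 0.80, adjusted p 0.00971), Il3ra (0.48, adjusted p 0.0161) and Csf2ra (0.68, adjusted p 0.0259), which bind the products of Il2, Il3 and Csf2. Lower in cKO were Tnfrsf1b (-0.50), Il17ra (-0.61) and Il21r (-0.57). The median of the list was -0.19, against -0.03 over all genes. Ex vivo only Ifngr1, a chain of the interferon gamma receptor, was called, lower in cKO by 0.97 (adjusted p 0.00498).

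Of 24 transcriptional activators of cytokine genes, 22 were tested. Ex vivo 6 were higher in cKO and 1 lower. Tbx21, which encodes T-bet, the activator of Ifng, was higher by 1.04 (adjusted p 0.000931) and Irf4 by 1.12 (adjusted p 0.00122), while Jun, an AP-1 subunit, was lower by 1.28 (adjusted p 0.00696). After stimulation 5 were higher and 1 lower, with Tbx21 at 1.73 (adjusted p 5.5e-05) and Gata3, the activator of Il4 and Il13, at 0.76 (adjusted p 0.0122). The medians were 0.23 ex vivo and 0.09 after stimulation. On stimulation 6 were higher and 10 lower in WT, where 12.7% and 19.3% of all genes tested were. In cKO 6 were higher and 12 lower, where 17.3% and 26.5% of all genes were. Among the lower ones were the AP-1 genes Fos (-3.50 in WT and -3.01 in cKO), Fosb (-3.71 and -3.86), Jun (-4.11 and -2.23) and Junb (-3.07 and -2.62), immediate early genes that fell together with Ifng. Fos stood at 749 ± 305 TPM in WT ex vivo against 71.6 ± 8.47 TPM in WT stimulated, and Fosb at 788 ± 148 against 67.4 ± 7.63 TPM (SD, n = 3 each). The part of this ex vivo signal in the stimulation comparisons was not tested.

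Of 16 repressors of cytokine genes, Ikzf1 among them, 15 were tested, and ex vivo 3 were higher in cKO and 1, Ikzf1, lower. After stimulation Ikzf1, Gfi1 and Bcl6 were lower in cKO, Bcl6 by 1.38 (adjusted p 0.00151), and Foxp3 (0.96, adjusted p 0.00847) and Prdm1 (0.56, adjusted p 0.0275) were higher. The median of the list was 0.01. Among 17 genes beside the cytokine loci, 9 were tested. After stimulation 3 were higher in cKO, Lta beside Tnf (1.08, adjusted p 0.00297), Irf1 (0.85, adjusted p 0.00151) and Slc22a5 (0.53, adjusted p 0.00453). Of 25 other cytokines and chemokines of T cells, 17 were tested, and 5 were higher and 0 lower in each genotype comparison. Tnfsf11, which encodes RANKL, was higher by 2.01 ex vivo (adjusted p 0.000126) and by 1.19 after stimulation (adjusted p 0.0025), and the chemokine gene Ccl1 by 1.81 after stimulation (adjusted p 0.00179). Ccl1, 1 of the 5 after stimulation, passed the 5 TPM filter only through cKO stimulated (group mean 9.04 TPM, against 1.90 to 3.73 TPM in the other groups), so that its call is no support for a difference in that group.

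Markers of other cells that make these cytokines were measured beside them. Of 6 mast cell, basophil and ILC2 markers only Il1rl1, which Treg also express, reached a group mean of 5 TPM. Il1rl1 was called higher in cKO both ex vivo (0.97, adjusted p 0.00477) and after stimulation (0.89, adjusted p 0.00562). The summed level of the 6 was 10.2 to 11.9 TPM in WT and 15.1 to 22.97 TPM in cKO ex vivo, without overlap, and 25.1 to 35.4 TPM against 33.5 to 54.5 TPM after stimulation. The basophil and mast cell protease genes Mcpt8 and Cpa3 had group means of 0.863 to 2.69 and 0.832 to 1.99 TPM, within the range of olfactory receptor genes. The 6 B cell markers summed to 12.8 to 16.2 TPM in WT and 19.8 to 28.03 TPM in cKO ex vivo, without overlap, and to 14.0 to 19.7 TPM against 17.7 to 23.1 TPM after stimulation. Cd79b, a chain of the B cell receptor complex and the only tested gene among them, was higher in cKO after stimulation (0.96, adjusted p 0.0282) and not called ex vivo (0.70, adjusted p 0.112). Hdc, which encodes histidine decarboxylase, an enzyme of mast cells and basophils, was on none of the lists and is named for its likeness to Il3 and Csf2. It read 1.57 to 2.50 TPM in WT stimulated and 6.03, 7.18 and 4.03 TPM in cKO stimulated, the only group in which its mean reached 5 TPM. As it was chosen for a pattern like that of Il3, these levels are a description with no test. The part of these cells in the cytokine results was not tested. The genotypes overlapped in both conditions in the sums of 6 CD8 T cell and NK cell markers (14.4 to 25.6 TPM over the 12 libraries) and of 6 myeloid markers (7.46 to 17.1 TPM). None of these lists had a defining marker listed at 0 in a whole group. The Treg and T cell markers were present, with sums of 959 to 2619 TPM.

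For the genes whose pattern over the 12 libraries was most like that of each cytokine gene, Pearson's r on log2(scaled TPM + 1) was taken as a description, since the 12 libraries fall into 4 groups. For Il2 the 3 closest were Iigp1 (r = 0.981), Gbp5 (0.981) and Mov10 (0.977). For Il3 they were Hdc (0.97), Mov10 (0.966) and Il2 itself (0.958). For Csf2 they were Gm11865, Hdc and Ccl1 (0.901 to 0.928), and for Ifng they were Ifih1, Csf1 and Il10ra (0.974 to 0.976). For Il13 they were 7SK, Gm12365 and U1 (0.959 to 0.978).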

How the data were processed

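Per the labels and the study's methods, the authors depleted ribosomal RNA, made strand-specific libraries, aligned paired reads to mm9 with STAR 2.6.0c and counted them on exons by strand with HTSeq 0.6.1. The deposited table holds an expression signal for 36222 genes in each of 12 libraries, in TPM, each library summing to 1000000. Its second column, log2 of the TPM plus the TPM of 1 read, is also the authors'. The pair of columns gives back whole reads (within 0.01) for 99.9977% of the values. A second deposited table holds the authors' fold changes and test results and was not used.

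Libraries were scaled by an unweighted trimmed mean of M-values (30% of M-values and 5% of A-values trimmed) over genes averaging 5 TPM or more in some group. Log2 of the scaled TPM plus 1 went into limma 3.58.1 in R 4.3.3 (eBayes with trend), fitted to all 12 libraries with group as the only term. P-values were two-sided, and a gene was called at an adjusted p under 0.05. Fold changes on this scale understate the change of low genes. Levels are deposited TPM, with intervals for 95% confidence. The study's own test was a count model. As the deposited unit is TPM, limma on the log scale was the main test here, with voom on the recovered reads as an alternative. The code was tested on simulated data. Exact permutation of 3 libraries against 3 cannot go below p = 0.1 and was not used.

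All 9 cytokine genes were named, with Ikzf1 first, listed genes that were called and, for each tested cytokine gene, the 3 genes of highest r. The genes of highest r with Tnf are not reported here. The cytokine genes, the gene lists and the 5 TPM filter were chosen with earlier results of these data known. Alternatives were a filter at 1 TPM or none, other pseudocounts, scalings and tools, background subtraction, fewer libraries and the replicate number as a block. The replicate numbers were not taken to pair the libraries, since 2 of 18 correlations of deviations between same-numbered libraries were over 0.1, both between WT and cKO ex vivo. Positions are from GENCODE vM1 on NCBIM37 (mm9), read with Python 3.11.15. Reads carried no molecular identifiers. Libraries came from individual mice per the labels.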

Additional observations from a re-analysis of the deposited data

Results flagged for a closer look

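The test of the difference between the genotypes in the response to stimulation passed the threshold for Il3. The difference was 2.897 (log2, limma, adjusted p 0.0383), in a fit that Il3 entered only through the group in which it was high, and the 3 stimulated cKO libraries, at 26.3, 25.5 and 8.45 TPM, were above all other libraries. The call depended on the choices made, since it was kept in 8 of 24 alternatives. It was lost at 1 TPM (adjusted p 0.436), with the replicate block (0.0679) and when any of 9 libraries was omitted, up to 0.113 without cKO stimulated 1.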

How the results depend on the processing

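The number of cytokine genes called changed with the filter, the scaling and the libraries. For the genotype effect ex vivo it was 2 with the 5 TPM filter and 0 with 1 TPM, no filter, or 1 TPM with the replicate block. After stimulation it was 5, against 2 with 1 TPM, no filter or no scaling, 0 with 1 TPM and the block, 4 with a pseudocount of 1 read, 6 with voom (Il13 gained) and 2 to 5 with a library left out. Over all genes the calls after stimulation were 923, against 1247 with voom, 306 without scaling and 68 without filter. The pseudocount, block and left-out fits are given without such a total. The interaction count was 1, against 0 at 1 TPM with new or unchanged scale factors, without filter, with a pseudocount of 1 read, without scaling and with the replicate block, and 0 to 1 with a library left out. Over all genes 148 interactions were called, against 67 without scaling and 74 at 1 TPM with unchanged factors. With the new factors at 1 TPM, or without filter, 0 were called. The 1 TPM filter came with new scale factors. Over all genes it gave 57 calls in place of 704 ex vivo and 68 in place of 923 after stimulation, against 390 and 600 with the scale factors unchanged, where 2 and 6 cytokine genes were called. The new factors shifted the median of the genes of at least 5 TPM by -0.27 after stimulation and by -0.49 for stimulation in cKO, and the absence of scaling by -0.26 and -0.30. The share of calls that were higher was 68.5% ex vivo and 47.6% after stimulation, against 95.2% and 22.5% without scaling, and 39.5% for stimulation in cKO, against 11.9% without scaling, 12.8% at 1 TPM and 58.9% there with unchanged factors. For stimulation in WT the share was 39.6%, against 60.5% without scaling and 16.5% at 1 TPM. For the interaction it was 40.5%, against 8.96% without scaling. For stimulation the counts were 1 in WT throughout and 4 to 7 in cKO. Between WT and cKO ex vivo the deviations of same-numbered libraries correlated at 0.149, 0.257 and 0.078, and all 3 matched their own number best, a hint of pairing from the data and not the design. The replicate block left 2 calls ex vivo, 4 after stimulation (Il2 at an adjusted p of 0.0544), 1 for stimulation in WT and 5 in cKO (Tnf at 0.0503). Changes of direction occurred in 31 of 744 alternative fits of single genes, all but 1 of them for genes not called in that comparison. The exception was Tnf on stimulation in cKO with quantile normalization (0.12). Quantile normalization also turned Il2 ex vivo (-0.18) and, for stimulation in WT, Il2 (-0.23), Il3 (-0.40) and Tnf (0.13). Without scaling, Il3 (0.051) and Csf2 (0.15) turned ex vivo, and Tnf (0.053) and Il13 (0.085) for stimulation in WT. Voom turned Csf2 ex vivo (0.13) and Il13 for stimulation in WT (0.017), background subtraction Il2 ex vivo (-0.040), and the absence of a filter Csf2 ex vivo (0.0068). Il3 on stimulation in WT, at 0.0012 under the 5 TPM filter, was -0.16 at 1 TPM with or without the block, -0.14 without filter, -0.0033 with a pseudocount of 0.5 and -0.17 with background subtracted. With a library left out the changes ex vivo ranged from -0.20 to 0.28 for Il2, from -0.29 to 0.17 for Il3 and from -0.25 to 0.25 for Csf2, and those for stimulation in WT from -0.19 to 0.31 for Il3, from -0.37 to 0.12 for Csf2 and from -0.28 to 0.30 for Il13.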
